A study of Oryzias latipes with 27 samples.

Results

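The ovaries of XX and XY medaka were compared at 30 days post hatch (D30) by poly(A) RNA-seq. Of the 27 gonad libraries of the series, 6 were used for this comparison, chosen by stage and genotype from their labels. The stage was picked because the ovaries were known to differ most there, so a larger number of differing genes than at other stages is no finding. They were 3 libraries of WT_Fe_Ov, the ovary of wild-type XX females, and 3 of MT_Fe_Ov, the ovary of XY females in which DMY is knocked out. DMY is the Y-linked gene that starts testis development in this fish, and the mutant line was made with TALENs and kept by inheritance. The labels call these XY animals both male, by title, and female, by sex and tissue. The groups thus differed in the sex chromosomes as well as in the mutation, and the sources used here do not say how many animals went into a library. Genes of the testis at D30 (WT_Ma_Te) and of the ovaries at D10 and D120 are given only beside results of this comparison. At D10 the tissue was the gonadal primordium together with tissue next to it, from a trunk without head and tail. DMY was not analysed here, so the knockout itself was not checked in the counts.

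An ovary of this age holds oocytes that have entered meiosis and begun to grow, surrounded by somatic follicle cells. The oocytes store messenger RNAs such as zar1 and secrete growth factors such as bmp15, under regulators such as figla. The follicle cells make steroids and keep the female fate with the help of foxl2 and of the aromatase gene cyp19a1, whereas gsdf and amh are ligands that act early in the testis.

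Total counts were 14855932 to 15297992 in WT_Fe_Ov and 6301347 to 10129588 in MT_Fe_Ov. A gene at a low level was therefore measured less precisely in MT_Fe_Ov. The paper lists only slightly fewer uniquely mapped read pairs for MT_Fe_Ov than for WT_Fe_Ov at D30. A smaller share of the mapped pairs was thus counted in genes in MT_Fe_Ov. The reason was not tested, and this difference between the libraries cannot be told apart from genotype. In a principal component analysis of 15458 genes, PC1 (45.6% of the variance) separated the groups. MT_Fe_Ov replicate 2 stood apart from the other 2 MT_Fe_Ov libraries on PC2 (36.3%), at 47.7 against -33.0 and -39.2. Pearson's r between replicates, across genes and on log2 CPM, was 0.993 to 0.997 in WT_Fe_Ov and 0.940 to 0.976 in MT_Fe_Ov, and no pair of libraries agreed within sampling noise. The main results are therefore also given without MT_Fe_Ov replicate 2.

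Between the D30 ovaries, 401 of 23842 genes tested were differentially expressed (DEGs), which is 1.68%. A DEG had an edgeR adjusted p of at most 0.05 and a log2 fold change of at least 1 in either direction. Of these, 210 genes (0.881% of those tested) were higher in WT_Fe_Ov and 191 genes (0.801%) were higher in MT_Fe_Ov. The differences were larger among the genes higher in WT_Fe_Ov, with a median absolute log2 fold change of 2.76 against 1.39. Of them, 55 passed a log2 fold change of 4, against 8 of the others. The lower group of the first set is MT_Fe_Ov, with the lower total counts. The mean of the higher group was under 1 FPKM for 18.6% of the first set and 6.81% of the others. The part of depth and level in the larger folds was not tested. The median log2 fold change of all genes tested was 0.04, and 4705 of them (19.7%) had an unadjusted p under 0.05. The libraries of the groups did not overlap for any of the 401 DEGs, as for 28.6% of all genes tested. The genes higher in WT_Fe_Ov included 192 protein-coding genes and 16 lncRNAs, and those higher in MT_Fe_Ov 174 and 17. Many have only placeholder symbols, 138 and 107 respectively, which no source used here ties to a function.

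The number of calls changed with the libraries used. Without WT_Fe_Ov replicate 1, 2 or 3, edgeR called 4, 2 and 0 genes, although 3229, 3122 and 2977 genes had an unadjusted p under 0.05. DESeq2 called 443, 437 and 411 genes on the same 5 libraries, and 719 on all 6. All 401 DEGs kept their direction in each fit that left out 1 library, with either tool. That outcome was largely fixed in advance, because the groups do not overlap for any of the 401. Without MT_Fe_Ov replicate 2 edgeR called 1078 of 23694 genes tested, 747 higher in WT_Fe_Ov and 331 higher in MT_Fe_Ov. Of the 401 DEGs, 376 were among them. Without MT_Fe_Ov replicate 1 it called 240 genes.

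**Figure D1:**
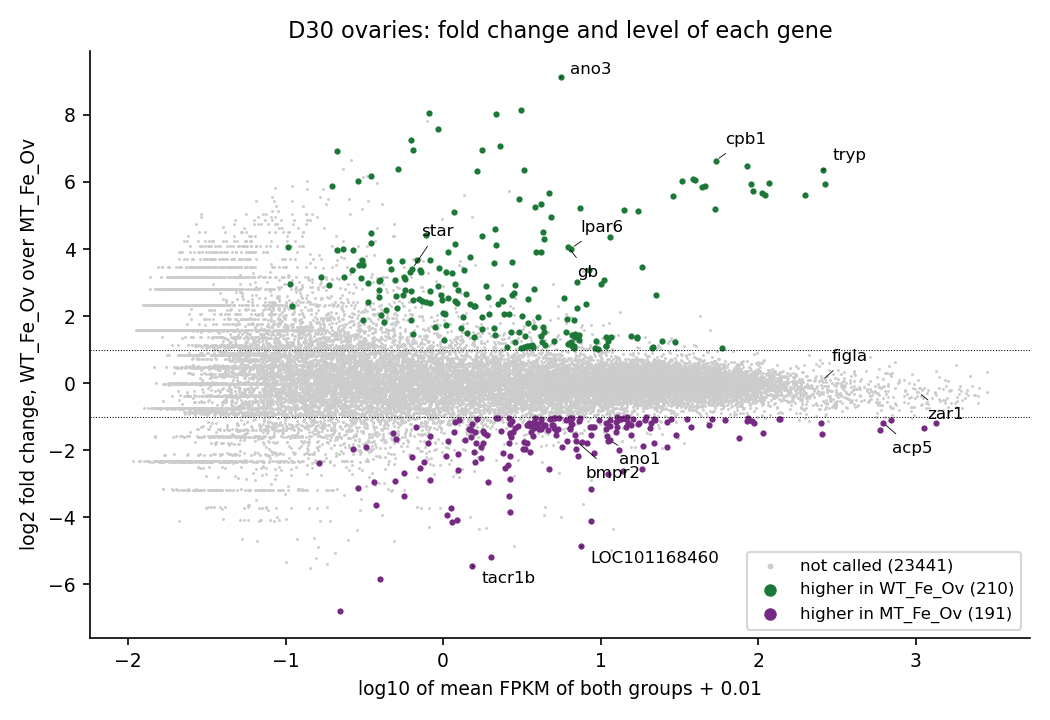
Log2 fold change of each gene at D30 (WT_Fe_Ov over MT_Fe_Ov, vertical axis) against the log10 of its mean FPKM over both groups plus 0.01 (horizontal axis). The 210 green points are DEGs higher in WT_Fe_Ov and the 191 purple points DEGs higher in MT_Fe_Ov, dotted lines mark a log2 fold change of 1 in each direction, and cpb1 and tryp stand out among green points at a high level while acp5 is an abundant purple one.

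Oocyte genes other than lhx8 differed between the ovaries by less than the fold required of a DEG. The FPKM of lhx8 was 0.287, 0.549 and 0.499 in WT_Fe_Ov and 0.0995, 0.0899 and 0.124 in MT_Fe_Ov. Its log2 fold change was 1.93, with an edgeR adjusted p of 0.11. Of 17 oocyte genes tested, none of them an egg coat gene, 0 were DEGs, and the median log2 fold change was -0.26. An unadjusted p under 0.05 was found for 10 of the 17, against 19.7% of all genes tested, 7 of them higher in MT_Fe_Ov and 3 in WT_Fe_Ov. Their summed level was 6596 to 6691 CPM in WT_Fe_Ov and 7468 to 7826 CPM in MT_Fe_Ov, without overlap. The FPKM of bmp15, an oocyte growth factor, was 322, 323 and 327 in WT_Fe_Ov and 326, 291 and 317 in MT_Fe_Ov. The libraries overlapped, and the log2 fold change was -0.01 ± 0.12 (SE, n = 3 and 3, edgeR adjusted p = 0.996). That of figla, a transcription factor of oocytes, was 241, 279 and 273 against 240, 287 and 200. For zar1, a maternal factor, it was 958, 945 and 976 against 1179, 1274 and 873. Both also overlapped. In the D30 testis the FPKM of bmp15 was 3.77 to 5.94 and that of zar1 6.29 to 8.59, so the oocyte markers of the label were present in all 6 ovary libraries. The germ cell helicase gene ddx4 was at 191, 190 and 185 in WT_Fe_Ov and at 253, 291 and 282 in MT_Fe_Ov, with an edgeR adjusted p of 0.0342 at a log2 fold change of -0.60. The maternal factor gene zar1l was at 901, 816 and 851 against 1312, 1437 and 1151 (log2 fold change -0.66 ± 0.13, SE, edgeR adjusted p = 0.0397). For both genes every MT_Fe_Ov library was above every WT_Fe_Ov library.

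Of 27 meiosis genes 0 were DEGs (7 with an unadjusted p under 0.05, median log2 fold change 0.20), and of 16 genes of the piRNA pathway, the small RNA defence of germ cells, 0 were (3 with such a p, median 0.12). Lists of this size hold few DEGs at the share of 1.68% over all genes. Of 42 sperm and cilia genes, 1 was higher in MT_Fe_Ov and 0 in WT_Fe_Ov, with a median of 0.54, against 1.68% of all genes called. An unadjusted p under 0.05 was found for 14 of the 42, 10 higher in WT_Fe_Ov and 4 higher in MT_Fe_Ov. Among the first, dnai2, of a dynein of cilia, had a log2 fold change of 2.11 (edgeR adjusted p = 0.0576). Without MT_Fe_Ov replicate 2, 3 genes of the list were higher in WT_Fe_Ov (dnai2, spata18 and ccdc65) and 2 higher in MT_Fe_Ov (cfap54 and rfx3). Over all 23694 genes of that fit, 747 and 331 were called in these directions. The DEG with all libraries was cfap54, a protein of the ciliary axoneme, whose FPKM was 0.540, 0.843 and 0.891 in WT_Fe_Ov and 1.95, 2.87 and 1.89 in MT_Fe_Ov. Every MT_Fe_Ov library was above every WT_Fe_Ov library (log2 fold change -1.61 ± 0.26, SE, edgeR adjusted p = 0.0232). Outside the list, spef2, which is needed for sperm flagella in mammals, was 0.282, 0.568 and 0.524 against 3.79, 3.27 and 3.14, a 7.73-fold higher fitted level in MT_Fe_Ov (edgeR adjusted p = 0.00621). In the testis cfap54 was at 12.8 to 15.7 and spef2 at 9.56 to 10.7 FPKM, above both kinds of ovary. The testis mean was above that of WT_Fe_Ov for 73.2% of all genes tested and above that of MT_Fe_Ov for 74.7%. Without MT_Fe_Ov replicate 1, cfap54 had an edgeR adjusted p of 0.057. At D120 spef2 was at 0.376, 2.69 and 0.774 FPKM in WT_Fe_Ov and at 0.589, 2.64 and 6.84 in MT_Fe_Ov. For cfap54 it was 0.681, 0.171 and 0.499 against 0.547, 4.40 and 1.96. Libraries of the same group thus differed widely there. For these genes, differences between single animals and the effect of genotype cannot be told apart.

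Of 42 cell cycle genes, 1 was higher in MT_Fe_Ov and 0 in WT_Fe_Ov, with a median log2 fold change of -0.08, against 1.68% of all genes called. The gene was cdkn1b, an inhibitor of cyclin-dependent kinases, at 5.35, 5.91 and 4.65 FPKM in WT_Fe_Ov and 17.8, 21.5 and 11.4 in MT_Fe_Ov. The groups did not overlap, and the log2 fold change was -1.72 ± 0.23 (SE, edgeR adjusted p = 0.0127). The genes ccna2, ccnb1 and top2a of the list had log2 fold changes of -0.70, -0.71 and -0.70, under the fold required of a DEG. Their edgeR adjusted p were 0.0468, 0.0418 and 0.0204. Over the list, 13 of the 42 genes had an unadjusted p under 0.05 (19.7% of all genes), 10 higher in MT_Fe_Ov and 3 higher in WT_Fe_Ov. The summed level of the list was 9531 to 10066 CPM in WT_Fe_Ov and 11255 to 11760 CPM in MT_Fe_Ov, without overlap.

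Signalling genes of the TGF-beta superfamily that were DEGs were all higher in MT_Fe_Ov when all 6 libraries were used. Ligands of this family (TGF-betas, BMPs, activins, amh, gsdf) bind a type 2 and a type 1 receptor, which phosphorylate SMAD proteins that enter the nucleus. Of 42 genes tested, 4 were higher in MT_Fe_Ov (0.801% of all genes) and 0 in WT_Fe_Ov (0.881% of all genes), with a median log2 fold change of -0.08. Of these, 3 code for type 2 receptors and 1 for a SMAD.

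The BMP receptor gene bmpr2 was at 3.30, 3.12 and 3.67 FPKM in WT_Fe_Ov and at 7.70, 10.0 and 13.9 in MT_Fe_Ov. The groups were well separated, with a 3.28-fold higher fitted level in MT_Fe_Ov (log2 fold change -1.71 ± 0.23, SE, edgeR adjusted p = 0.0127). The activin receptor gene acvr2a was at 3.66, 2.86 and 2.69 against 7.56, 9.96 and 5.42, and the fold was 2.57 (edgeR adjusted p = 0.0251). The gene of the TGF-beta receptor, tgfbr2, was at 2.80, 3.74 and 3.71 against 6.16, 8.07 and 6.11, a 2.06-fold difference (edgeR adjusted p = 0.0346). All MT_Fe_Ov libraries lay above all WT_Fe_Ov libraries for these receptors. The FPKM of smad2, which carries TGF-beta and activin signals, was 1.21, 0.848 and 0.961 in WT_Fe_Ov and 2.13, 2.56 and 3.65 in MT_Fe_Ov, a 2.89-fold difference (edgeR adjusted p = 0.0342).

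Other members were not DEGs with all 6 libraries. Some passed the fold of a DEG but not the adjusted p, in either direction. Among them were gdf11, acvr1c, bmp10 and gdf5, with log2 fold changes of -3.17, -1.76, 1.58 and 1.31 (edgeR adjusted p of 0.303 to 0.657). The FPKM of gdf11 was 0 in every WT_Fe_Ov library and 0, 0.0375 and 0.0259 in MT_Fe_Ov. That of bmp10 was 0.0166 in WT_Fe_Ov replicate 1 and 0 in every other library of the D30 ovaries. The folds of gdf11 and bmp10 thus rest on very few reads. Those given next were below that fold. The decoy receptor gene bambi had a log2 fold change of -0.68 ± 0.11 (SE, edgeR adjusted p = 0.0212), and the ligand gene gdf3 of -0.48 (edgeR adjusted p = 0.0450). The ligand amh was at 19.0, 19.2 and 19.2 FPKM in WT_Fe_Ov and at 26.4, 26.04 and 22.8 in MT_Fe_Ov, with an edgeR adjusted p of 0.0651. The ligand bmp4 was at 5.15, 6.95 and 6.57 against 4.84, 10.8 and 5.31, and the groups overlapped. In the testis bmpr2, smad2 and tgfbr2 were higher than in either ovary, at 17.5 to 19.8, 15.1 to 15.4 and 15.7 to 22.3 FPKM. Most genes share this order, the testis mean being above that of WT_Fe_Ov for 73.2% of all genes tested and above that of MT_Fe_Ov for 74.7%. Without MT_Fe_Ov replicate 1, smad2, acvr2a and tgfbr2 had edgeR adjusted p of 0.057, 0.077 and 0.076. Without MT_Fe_Ov replicate 2, the log2 fold change of tgfbr2 was -0.94, under the fold of a DEG. In that fit 747 of all 23694 genes were higher in WT_Fe_Ov and 331 higher in MT_Fe_Ov. The list held 3 DEGs in each direction. Those higher in WT_Fe_Ov were gsdf (log2 fold change 1.48, edgeR adjusted p = 0.00935), inhbb, of an activin subunit (1.58, edgeR adjusted p = 0.0492), and ltbp2, of a matrix protein (2.02, edgeR adjusted p = 0.00723), and the median of the list was 0.33. Replicate 2 had the highest MT_Fe_Ov level of gsdf, inhbb and ltbp2, so leaving it out favours that direction.

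**Figure D2:**
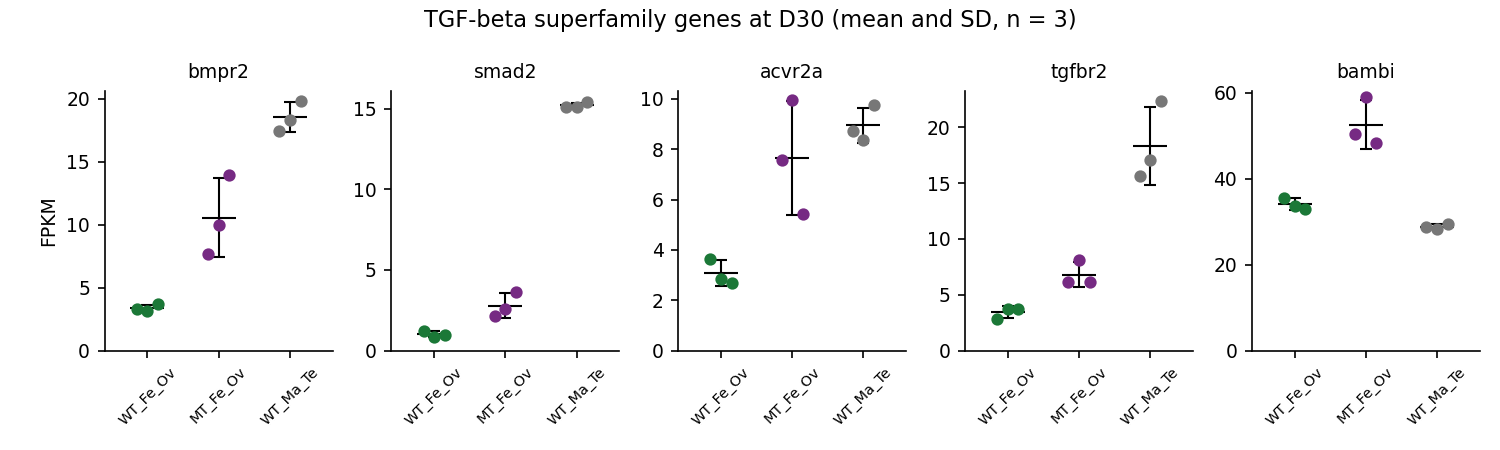
FPKM of 5 TGF-beta superfamily genes at D30 in WT_Fe_Ov (green), MT_Fe_Ov (purple) and WT_Ma_Te (grey), with each point 1 library and bars for the mean and SD (n = 3). Every MT_Fe_Ov library is above every WT_Fe_Ov library for each gene, and bambi, at 48.2 FPKM or more in MT_Fe_Ov, is the only one of the 5 with both ovaries above the testis.

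Somatic genes of the follicle were spread widely within MT_Fe_Ov. The FPKM of foxl2, a transcription factor of ovarian somatic cells, was 8.80, 8.37 and 9.56 in WT_Fe_Ov and 2.31, 8.60 and 3.89 in MT_Fe_Ov. The ligand gene gsdf was at 61.0, 90.4 and 74.7 in WT_Fe_Ov and at 18.9, 134 and 30.9 in MT_Fe_Ov. For both genes MT_Fe_Ov replicates 1 and 3 lay below every WT_Fe_Ov library and replicate 2 did not. Over all 6 libraries the log2 fold change was 0.81 ± 0.40 for foxl2 and 0.28 ± 0.61 for gsdf (SE, edgeR adjusted p = 0.309 and 0.819). In the testis gsdf was at 2008 to 2244 FPKM, above every ovary library. The gene listed for cyp19a1, the aromatase that makes oestrogens (LOC101174651), was at 4.74, 8.14 and 5.06 against 2.16, 33.6 and 5.32, again highest in MT_Fe_Ov replicate 2.

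Of 28 ovarian follicle and steroid genes, 1 was a DEG (1.68% of all genes), star, higher in WT_Fe_Ov, and the median log2 fold change was 0.25. The protein of star carries cholesterol into mitochondria for steroid synthesis. Its FPKM was low, at 0.874, 1.35 and 1.26 in WT_Fe_Ov and 0, 0.160 and 0.110 in MT_Fe_Ov, from 47 counts against 2 in all. The ratio of depth-scaled counts was 11.7, with an exact 95% interval of 3.05 to 99.0 that covers counting error only (edgeR adjusted p = 0.0385). Without MT_Fe_Ov replicate 1 or replicate 3 its edgeR adjusted p was 0.082 and 0.057. DESeq2 gave star no adjusted p, and with the count filter filterByExpr star was not tested.

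Without MT_Fe_Ov replicate 2, 10 of the 28 follicle and steroid genes were higher in WT_Fe_Ov, as were 747 of all 23694 genes tested in that fit. The 10 genes included foxl2, with a log2 fold change of 1.38 (edgeR adjusted p = 0.0145), and fshr, the receptor of follicle-stimulating hormone, with 1.46 (edgeR adjusted p = 0.0133). The steroid enzyme genes cyp17 and hsd17b3 had log2 fold changes of 2.36 and 2.495 (edgeR adjusted p = 0.00717 and 0.00798). With all 6 libraries these 4 genes had log2 fold changes of 0.81, 0.97, 1.53 and 1.78 and none was a DEG. Replicate 2 was picked from these same data and had the highest MT_Fe_Ov level of each of the 10 genes. Leaving it out therefore favours calls higher in WT_Fe_Ov.

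The same library moved with other somatic lists. For sparc, a matrix protein, the FPKM was 38.2, 40.9 and 43.3 in WT_Fe_Ov and 7.49, 65.2 and 14.5 in MT_Fe_Ov. For acta2, smooth muscle actin, it was 32.4, 46.6 and 42.6 against 5.27, 36.2 and 7.74, and for cd74, of antigen presentation, 38.7, 50.8 and 43.5 against 7.68, 71.2 and 11.5. In each case MT_Fe_Ov replicates 1 and 3 were below all WT_Fe_Ov libraries. Of 41 extracellular matrix and stroma genes, 0 were DEGs with all libraries (3 with an unadjusted p under 0.05) and 5 were higher in WT_Fe_Ov without MT_Fe_Ov replicate 2. The immune and the muscle list went from 1 DEG each to 5 each, all higher in WT_Fe_Ov. Not all of these genes were high in MT_Fe_Ov replicate 2. There ptprc and ccr7 of the immune list were at 0.202 and 0.258 FPKM and myh11 of the muscle list at 7.49, below every WT_Fe_Ov library. The liver list went from 0 to 2 higher in WT_Fe_Ov, and the gut and kidney list from 0 to 2 higher in MT_Fe_Ov. Over all genes, those higher in WT_Fe_Ov went from 210 of 23842 to 747 of 23694. Those higher in MT_Fe_Ov went from 191 to 331. Replicate 2 was picked from these same data, and for genes high in it, leaving it out favours calls higher in WT_Fe_Ov. The summed level of the matrix list was 972 to 1152 CPM in WT_Fe_Ov and 401, 1832 and 890 CPM in MT_Fe_Ov. In bulk tissue, fewer cells of a type and less RNA per cell cannot be told apart.

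**Figure D3:**
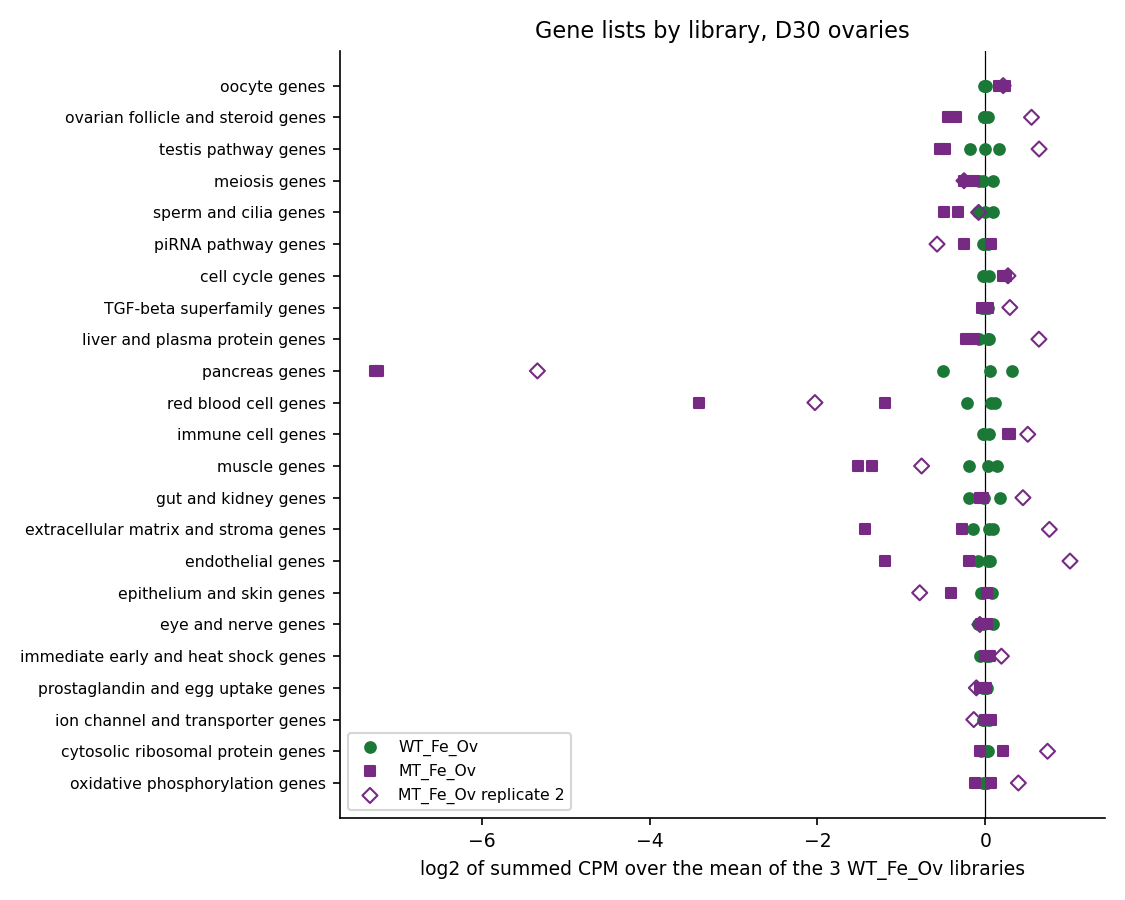
Summed CPM of each of 23 gene lists in each D30 ovary library, as the log2 of its ratio to the mean of the 3 WT_Fe_Ov libraries (horizontal axis). Green circles are WT_Fe_Ov, purple squares MT_Fe_Ov replicates 1 and 3, and open diamonds MT_Fe_Ov replicate 2, which lies above the other MT_Fe_Ov libraries for the follicle, testis, matrix and endothelial lists, while pancreas genes lie far below WT_Fe_Ov in all 3 MT_Fe_Ov libraries.

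The gene cpb1 codes for a carboxypeptidase and tryp for trypsin, proteases known from the exocrine pancreas. The FPKM of cpb1 (chromosome 20, ASM223467v1) was 75.6, 132 and 111 in WT_Fe_Ov and 0.529, 2.48 and 0.263 in MT_Fe_Ov. The lowest WT_Fe_Ov library was far above the highest MT_Fe_Ov library, with a log2 fold change of 6.63 ± 0.54 (SE, edgeR adjusted p = 0.0042). The FPKM of tryp was 393, 628 and 509 against 2.78, 14.6 and 1.499, an 81.9-fold difference (edgeR adjusted p = 0.00691). For pla2g1b, a phospholipase of pancreatic juice, it was 8.02, 20.6 and 15.04 against 0, 0.244 and 0.673 (edgeR adjusted p = 0.0123). Within MT_Fe_Ov, replicate 2 had the highest level of cpb1 and of tryp, but not of pla2g1b.

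The astacin protease genes mc6ast2 and mc6ast3 had the same order of groups. The FPKM of mc6ast2 was 58.2, 110 and 93.5 in WT_Fe_Ov and 1.34, 2.29 and 0.834 in MT_Fe_Ov, with a log2 fold change of 5.86 ± 0.36 (SE, edgeR adjusted p = 0.00179). That of mc6ast3 was 49.4, 63.1 and 56.7 against 0.171, 3.09 and 0.319 (log2 fold change 5.58, edgeR adjusted p = 0.00691). The gene endou, of an endoribonuclease, was at 7.89, 10.4 and 9.36 against 0, 0.468 and 0.0644. Trypsin and astacin genes belong to families of similar copies. The counting command given in the paper names no option to keep reads placed at several sites, so reads shared by copies could have been lost. The opposite order was found for tmprss15, of enteropeptidase, which activates trypsinogen, chosen after its values were seen. Its FPKM was 9.68, 14.2 and 12.1 in WT_Fe_Ov and 33.8, 31.1 and 21.9 in MT_Fe_Ov (log2 fold change -1.33, edgeR adjusted p = 0.018).

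To see which other genes went with them, cpb1 was correlated with every gene over the 21 libraries outside the D30 ovaries. These libraries differ in stage, tissue and depth (total counts of 5551651 to 17586392), and such differences enter the correlation. At Pearson's r of at least 0.95, 30 of 23842 genes (0.126%) followed cpb1, cpb1 itself included. Of these, 22 were higher in WT_Fe_Ov, 0 were higher in MT_Fe_Ov and 8 were not called. The 22 genes had fitted folds of 10.4 to 193, with a median of 60.1, and 16 of them have placeholder symbols. Together they took 0.284% to 0.456% of all counts in WT_Fe_Ov and 0.00239% to 0.0139% in MT_Fe_Ov. They took 1.25% to 1.49% in the D30 testis, 1.81% to 2.43% in D10 WT_Fe_Ov and 3.35% to 4.30% in D10 MT_Fe_Ov. At D120 the share was 0.011% to 0.0541% in WT_Fe_Ov and 0.00454% to 0.00995% in MT_Fe_Ov. The 22 genes were chosen as higher in WT_Fe_Ov, which fixes the order of the D30 ovaries. Over all 30 genes, the share was 0.285% to 0.457% in D30 WT_Fe_Ov, 0.00308% to 0.0156% in D30 MT_Fe_Ov and 1.28% to 1.52% in the D30 testis. The correlation left out the D30 ovaries, but it was set on cpb1 after the D30 values of cpb1 were seen. The 22 genes also hold nearly all counts of the 30 in D30 WT_Fe_Ov. The order of the D30 ovaries over the 30 genes is therefore largely set by the choice as well. When the 30 genes were left out of the fit, 186 genes were higher in WT_Fe_Ov and 197 higher in MT_Fe_Ov.

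**Figure D4:**
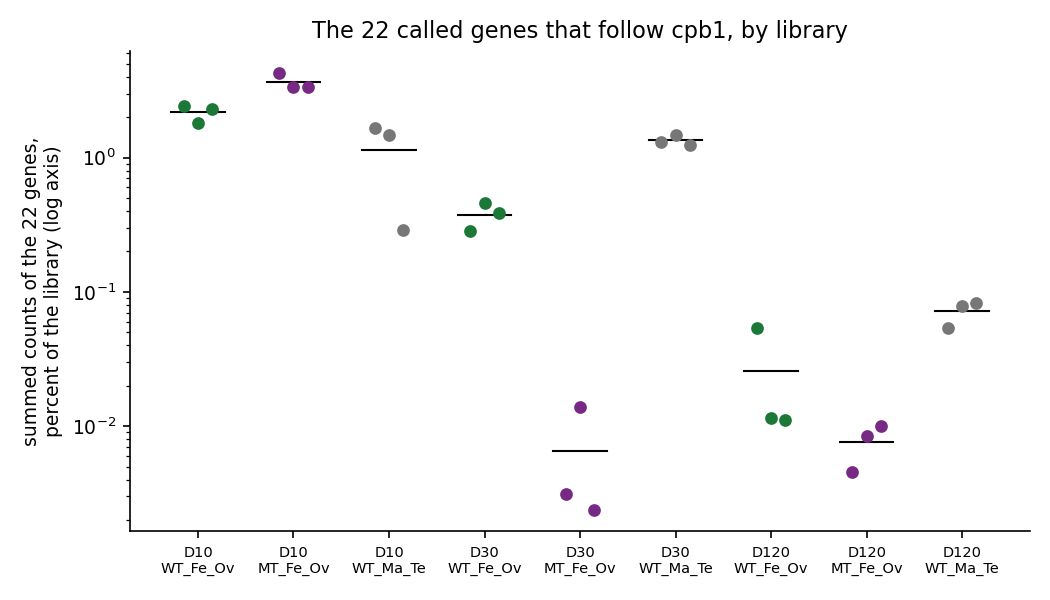
Summed counts of the 22 DEGs that follow cpb1, as percent of all counts of a library on a log axis, for the 9 groups of the series. Each point is 1 library and lines are group means; at D30 the WT_Fe_Ov libraries (0.284% to 0.456%) lie above the MT_Fe_Ov libraries (0.00239% to 0.0139%) and below the testis (1.25% to 1.49%), the order of the D30 ovaries being fixed by the choice of the 22 genes.

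The marker list of the pancreas, of 4 genes, was summed beside these values. It reached 119 to 210 CPM in WT_Fe_Ov and 1.09 to 4.16 CPM in MT_Fe_Ov. The 2 DEGs in it were cpb1 and pla2g1b. The regulators of pancreas cells in the list were near 0, with ptf1a at 0.0578 to 0.0596 FPKM in WT_Fe_Ov and 0 in MT_Fe_Ov, and pdx1 at 0.0557 to 0.226 against 0.1203 to 0.133. Of 18 liver and plasma protein genes and 14 gut and kidney genes 0 were DEGs, with 2 in each list at an unadjusted p under 0.05. The part of tissue from outside the gonad in the digestive enzyme result was not tested.

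Among the other DEGs higher in WT_Fe_Ov, the gene gb, which RefSeq lists with the synonym Gb-alpha1, was at 12.6, 10.5 and 11.99 FPKM in WT_Fe_Ov and at 0.298, 1.34 and 0.417 in MT_Fe_Ov. The groups were apart by a log2 fold change of 4.06 ± 0.43 (SE, edgeR adjusted p = 0.00691). At D120 gb was at 96.9 to 289 FPKM in the ovaries of both kinds. The red blood cell list held 2 genes, gata-1 and rhag, and neither was a DEG (edgeR adjusted p = 0.0798 and 0.104). The summed level of this list was 9.09 to 11.4 CPM in WT_Fe_Ov and 0.987 to 4.60 CPM in MT_Fe_Ov.

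Of 17 immune cell genes, 1 was higher in WT_Fe_Ov (0.881% of all genes) and 0 in MT_Fe_Ov, with a median log2 fold change of 1.21. Of the 17, 7 had an unadjusted p under 0.05 (19.7% of all genes), 6 higher in WT_Fe_Ov and 1 higher in MT_Fe_Ov. The latter was ctss, of a lysosomal protease, at 1367, 1407 and 1346 FPKM in WT_Fe_Ov and 1758, 1950 and 1712 in MT_Fe_Ov (log2 fold change -0.45, edgeR adjusted p = 0.0836). The summed level of the list, 1567 to 1645 CPM in WT_Fe_Ov and 1926 to 2272 CPM in MT_Fe_Ov, has the same order as ctss. The gene ncf4, of the oxidase of phagocytes, had a log2 fold change of -0.73 (edgeR adjusted p = 0.356). The DEG was ncf1, a subunit of the same oxidase, at 2.07, 1.76 and 2.15 FPKM against 0.395, 0.713 and 0.676. Its edgeR adjusted p was 0.0472, and 0.052 without a filter on low counts. Chosen after their values were seen, csf3r, the receptor of a granulocyte growth factor, was at 0.704, 0.453 and 0.513 FPKM against 0.0534, 0.0482 and 0.0332, from 75 counts against 3. The adaptor card9 was at 0.807, 0.991 and 1.23 against 0.151, 0.0681 and 0.0938, and the phosphatase ptpn6 of blood cells at 0.694, 0.434 and 0.604 against 0.1203, 0.0543 and 0.0374. In all 3 genes the groups did not overlap, and all were DEGs, at levels under 1.3 FPKM. The peptidoglycan amidase gene pglyrp2 was at 12.4, 17.9 and 16.2 against 0.924, 1.39 and 1.85 (log2 fold change 3.38, edgeR adjusted p = 0.0042), and it was 1 of the 22 genes that followed cpb1.

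A pair of genes known from pigment cells was also low in MT_Fe_Ov. The melanosome gene pmel was at 2.01, 1.71 and 2.30 FPKM in WT_Fe_Ov and at 0.227, 0.102 and 0.0705 in MT_Fe_Ov (log2 fold change 3.90, edgeR adjusted p = 0.00785). That of tyrp1, an enzyme of melanin synthesis, was 0.922, 1.36 and 0.968 against 0.224, 0.202 and 0.139 (edgeR adjusted p = 0.0253). Both were chosen after their values were seen, and in the testis they were at 50.9 to 57.2 and 24.5 to 31.9 FPKM. Summed counts in WT_Fe_Ov and MT_Fe_Ov were 254 against 8 for pmel and 104 against 9 for tyrp1. No list of pigment cell genes was tested. Of 17 muscle genes, 1 was higher in WT_Fe_Ov (0.881% of all genes), with a median of 0.69. It was myh11, smooth muscle myosin, at 19.98, 26.1 and 23.2 against 11.0, 7.49 and 6.37 (log2 fold change 1.42 ± 0.22, SE, edgeR adjusted p = 0.0209).

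Single genes with other roles were higher in WT_Fe_Ov as well. The lysophosphatidic acid receptor gene lpar6 was at 12.9, 11.8 and 11.8 FPKM against 0.0906, 1.31 and 0.733, a 16.1-fold difference (edgeR adjusted p = 0.0107). The gene of core-binding factor beta, cbfb, the partner of RUNX transcription factors, was at 3.15, 2.25 and 2.90 against 0.130, 0.293 and 0.161 (log2 fold change 3.76 ± 0.37, SE, edgeR adjusted p = 0.00621). The groups did not overlap for either gene. At D120 cbfb was at 6.28 to 10.4 FPKM in both kinds of ovary.

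Some of the genes with the largest fold were near 0 in every library of 1 group. The gene ano3, of the anoctamin family of membrane proteins (chromosome 6), was at 13.2, 8.89 and 11.2 FPKM in WT_Fe_Ov and at 0.0218, 0.0394 and 0 in MT_Fe_Ov. These values came from 3650 counts in WT_Fe_Ov and 3 in MT_Fe_Ov, a ratio of depth-scaled counts of 603 (exact 95% interval 206 to 2926, counting error only), with an edgeR adjusted p of 0.000353. The protein-coding gene LOC101159522 (chromosome 13) was at 5.11, 4.76 and 3.77 against 0.0539, 0 and 0.0335, from 605 counts against 2. Of the lncRNA LOC110017560, chosen after its values were seen, 131 counts were found in WT_Fe_Ov and 0 in MT_Fe_Ov, which allows up to 3 counts per library and makes it at least 7.22-fold higher.

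The reverse was seen for genes higher in MT_Fe_Ov. The gene LOC101168460 (chromosome 7) was at 0.474, 0.590 and 0.491 FPKM in WT_Fe_Ov and at 14.95, 12.2 and 16.05 in MT_Fe_Ov. The groups differed 29.0-fold (log2 fold change -4.86 ± 0.19, SE, edgeR adjusted p = 0.000197). On the same chromosome, LOC101166961 was at 0.157, 0.0324 and 0.128 against 5.11, 3.45 and 3.09. The tachykinin receptor gene tacr1b was at 0.0666, 0.0915 and 0.0451 against 3.40, 2.39 and 3.15 (log2 fold change -5.45, edgeR adjusted p = 0.0025). The last pair of genes was chosen after their values were seen.

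Several of these genes split the libraries within a group at D120. In D120 WT_Fe_Ov, ano3 was at 7.33, 6.09 and 0.0605 FPKM, and in D120 MT_Fe_Ov at 6.30, 0.0911 and 0.0902. High and near-zero libraries thus occurred in both groups. LOC101159522 was at 2.82, 7.58 and 11.7 against 5.74, 0.0281 and 0.0557. LOC101168460 was at 0.481, 6.09 and 0.482 against 0.416, 3.10 and 0.606, and LOC101166961 was at 1.05, 6.46 and 0.169 against 0.346, 3.02 and 0.276. Replicate 2 had the highest level of its group for both genes of chromosome 7. LOC101160681, also chosen after its values were seen, was at 3.34, 3.51 and 3.20 FPKM in D30 WT_Fe_Ov against 0.379, 0.0685 and 0.0472 in D30 MT_Fe_Ov, and at D120 the high libraries, at 7.15 and 7.87, were MT_Fe_Ov.

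A range of at least 8-fold within a D120 group of 3, with counts under 3 set to 3, was found for 329 of all genes tested (1.38%). Among the DEGs of D30 it was found for 25 of the 210 higher in WT_Fe_Ov (11.9%) and 14 of the 191 higher in MT_Fe_Ov (7.33%). A gene near 0 cannot reach such a range, which lowers the share over all genes. The mean of the higher D30 group was under 1 FPKM for 44.2% of all genes tested. It was so for 18.6% of the DEGs higher in WT_Fe_Ov and 6.81% of those higher in MT_Fe_Ov. Without the genes that followed cpb1, 19 in place of 25 DEGs higher in WT_Fe_Ov had such a range. Both D120 groups had such a range for 10 of the 401 DEGs, and for 38 of all genes tested. One of them was cpb2, of a plasma carboxypeptidase, at 3.65, 1.99 and 3.08 FPKM in D30 WT_Fe_Ov and 9.18, 14.8 and 9.37 in D30 MT_Fe_Ov (log2 fold change -1.97, edgeR adjusted p = 0.0194). At D120 it was at 10.7, 0.167 and 22.7 against 0.215, 0.278 and 10.5. With 3 libraries in a group, differences between single animals and the effect of genotype cannot be told apart for such genes.

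**Figure D5:**
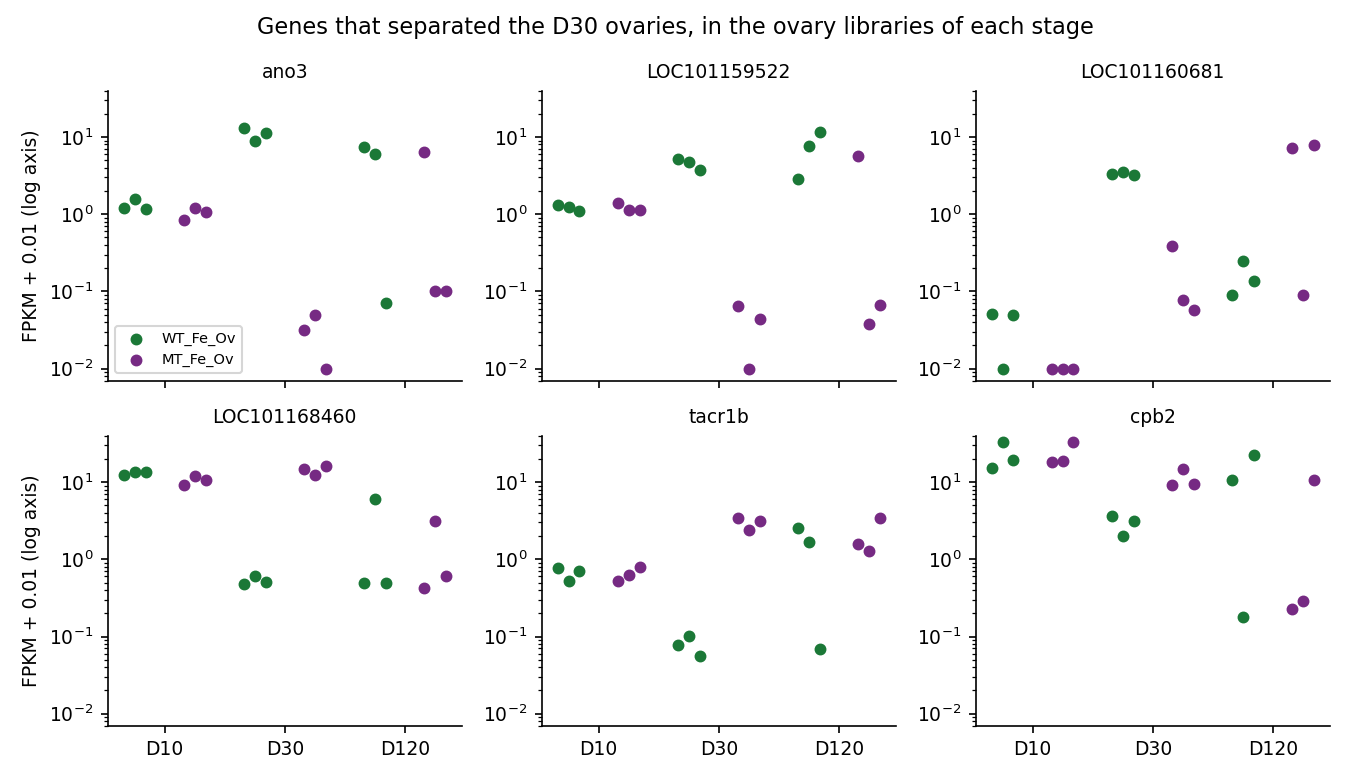
FPKM plus 0.01 on a log axis of 6 DEGs of D30 in the ovary libraries of each stage, with WT_Fe_Ov in green, MT_Fe_Ov in purple and each point 1 library. The groups are apart at D30 for each gene, whereas at D120 ano3 has high libraries (6.09 FPKM or more) and libraries under 0.1 FPKM in both groups.

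Of the 191 DEGs higher in MT_Fe_Ov, 43 passed a log2 fold change of 2 in size, and 75 (39.3%) had a D30 mean above 10 FPKM in either group, as had 32.3% of all genes tested. The chloride channel gene ano1 was at 5.47, 5.90 and 5.29 FPKM in WT_Fe_Ov and at 17.4, 16.1 and 18.3 in MT_Fe_Ov. Libraries within a group differed little, and the log2 fold change was -1.70 ± 0.12 (SE, edgeR adjusted p = 0.00255). Of 84 ion channel and transporter genes, ano3 and ano1 were the 2 DEGs, 1 in each direction, against 1.68% of all genes called. The median of the list was 0.16. Among abundant genes, acp5, an acid phosphatase, was at 412, 373 and 385 against 818, 933 and 785 (log2 fold change -1.17 ± 0.12, SE, edgeR adjusted p = 0.00683). The exchanger gene slc24a4 was at 43.1, 40.3 and 39.3 against 84.2, 67.9 and 96.8. Both, chosen after their values were seen, were under 4 FPKM in the D30 testis.

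Genes of signalling and of the cell surface were among them. The pseudokinase gene trib2 was at 5.69, 6.15 and 4.35 FPKM against 19.5, 28.1 and 14.6 (edgeR adjusted p = 0.00827). The cell-surface proteoglycan gene sdc3 was at 3.01, 3.55 and 4.14 against 10.2, 14.3 and 10.2 (edgeR adjusted p = 0.00621), and tax1bp3, of a small PDZ protein, at 31.2, 42.1 and 39.9 against 85.8, 145 and 106. No MT_Fe_Ov library overlapped WT_Fe_Ov for any of these. The transcriptional regulator gene kctd1 was at 1.48, 1.65 and 1.60 against 4.48, 4.63 and 6.41 (log2 fold change -1.78, edgeR adjusted p = 0.00782), and rbm43, of an RNA-binding protein, at 0.653, 0.698 and 0.909 against 3.82, 3.98 and 4.79 (edgeR adjusted p = 0.0042). The gene ckap4, of a protein of the endoplasmic reticulum, was at 0.603, 2.08 and 1.53 against 4.54, 7.74 and 11.5 (edgeR adjusted p = 0.0388), and lost its call without MT_Fe_Ov replicate 1 or 3 (edgeR adjusted p = 0.057 and 0.056). The iron uptake receptor gene tfrc and the ubiquitin ligase gene trim36, chosen after their values were seen, had log2 fold changes of -1.55 and -1.54.

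Placeholder genes with large folds completed the group. The lncRNA LOC110014086 (chromosome 1) was at 3.80, 2.47 and 2.89 FPKM against 16.01, 15.7 and 25.7, and the protein-coding LOC105353878 (chromosome 4) at 4.58, 6.72 and 5.13 against 20.6, 30.4 and 42.1. Each MT_Fe_Ov library was above every WT_Fe_Ov library for both genes. Of 72 cytosolic ribosomal protein genes 0 were DEGs, with a median log2 fold change of -0.43. An unadjusted p under 0.05 was found for 32, against 19.7% of all genes tested, 31 higher in MT_Fe_Ov and 1 in WT_Fe_Ov. Of the 72, 3 had an edgeR adjusted p of at most 0.05. Their summed level was 14842 to 15689 CPM in WT_Fe_Ov and 17792, 25697 and 14704 CPM in MT_Fe_Ov, so the difference was not shared by all libraries.

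The DEGs were spread over the 24 chromosomes, with 0.571% of the genes tested on chromosome 15 and 2.80% on chromosome 5. Chromosome 1, the sex chromosome of medaka, held 26 DEGs, 11 higher in WT_Fe_Ov and 15 higher in MT_Fe_Ov, which is 2.01% of its 1292 genes tested against 1.68% of all.

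With the same test, 92 of 24605 genes (0.374%) were DEGs at D10 and 25 of 24122 (0.104%) at D120. Of the 210 genes higher in WT_Fe_Ov, 1 was also higher in WT_Fe_Ov at D120 and 0 at D10. In the other direction, 5 were higher in MT_Fe_Ov at D10 and 2 at D120. Among the 5 were mc6ast2, LOC101174676, LOC101174455 and LOC101163630, which belong to the 22 genes that followed cpb1. The D10 libraries included tissue next to the gonad. Of the 191 genes higher in MT_Fe_Ov, 0 were called at D10 or D120 in either direction. The difference between D30 and D120 was tested itself, as an interaction in 1 fit of the 12 ovary libraries, and 286 of 24678 genes (1.16%) had an edgeR adjusted p of at most 0.05. They included 59 of the 210 and 74 of the 191 DEGs, all with a stage difference in the direction of the D30 fold. Both the stage and the genes were chosen for their difference at D30, which largely sets that direction.

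Genes with known roles were among these. For ano1 the log2 fold change at D30 minus that at D120 was -1.51 ± 0.18 (SE, edgeR adjusted p = 0.00251), for acp5 -1.19 ± 0.15 (edgeR adjusted p = 0.00251) and for cdkn1b -1.81 ± 0.33 (edgeR adjusted p = 0.0179). In the other direction it was 3.32 ± 0.38 for cbfb (edgeR adjusted p = 0.00251), 3.55 ± 0.68 for star (edgeR adjusted p = 0.0218) and 1.63 ± 0.25 for myh11 (edgeR adjusted p = 0.00717). The FPKM of star at D120 was 8.03 to 11.6 in WT_Fe_Ov and 9.09 to 13.3 in MT_Fe_Ov, so the groups overlapped there. At D30 star rested on 2 counts in MT_Fe_Ov. For cpb1 and ano3 the stage difference had edgeR adjusted p of 0.0757 and 0.148.

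Levels at D120 give the position of the D30 DEGs in time, as a description. For 193 of the 210 genes higher in WT_Fe_Ov (91.9%), the D120 ovary mean was above that of D30 MT_Fe_Ov, as for 61.6% of all genes tested. For 79 of the 210 (37.6%), it was above that of D30 WT_Fe_Ov, as for 57.3% of all. For 26 of the 191 genes higher in MT_Fe_Ov (13.6%), it was above that of D30 MT_Fe_Ov. For 123 of them (64.4%) it was above that of D30 WT_Fe_Ov, as for 57.3% of all genes tested. The rule that chose the DEGs used the D30 means, so part of these shares follows from the choice.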

How the data were processed

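Poly(A) RNA of gonads was sequenced in 3 libraries per group. Per the labels and methods, the authors cleaned reads with fastp, placed them on the assembly ASM223467v1 by STAR, and assigned read pairs to gene exons by featureCounts. No strand option is stated, so genes that overlap on opposite strands cannot be told apart. The deposited count table holds raw counts of 26099 genes, and the FPKM table was derived by the authors with a function of DESeq2. Of the symbols, 9 had been turned into dates and are not named. Gene names, synonyms and chromosomes are those of RefSeq for the same assembly (26090 symbols matched). Columns left unused numbered 0.

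A gene entered the test with a summed count of 1 or more over the 6 libraries. Tests were edgeR 4.0.16 quasi-likelihood tests under R 4.3.3, scaled by TMM and adjusted after Benjamini-Hochberg. The SE of a log2 fold change is its absolute value over the square root of the F statistic. Folds are fitted, and FPKM values are shown per library in the order of replicates 1, 2 and 3. In the smallest library 3 counts equal 0.476 CPM. A fold against a group at 0 used 3 counts per library, and intervals of count ratios are exact (Clopper-Pearson). Alternatives were DESeq2 1.42.0, other scalings, filters, thresholds and sets of libraries, and the replicate number as a block. DESeq2 without a library, the correlation with cpb1 and the fit without genes that follow it, and the range within D120 groups were added after the data were seen. The calls were tested on simulated data.

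Genes were named by rule. They are, in each direction, the 10 DEGs with the largest absolute log2 fold change among those whose libraries do not overlap and whose higher group has a mean of at least 100 counts, the next 8 with other than placeholder symbols, up to 4 DEGs per list and a set of gonad genes. The text names part of them. Others, among them list members that were not DEGs and those called without MT_Fe_Ov replicate 2, were chosen after their values were seen. The comparison, its members and the gene lists were chosen with earlier results of these data known. The p-values measure only the spread between these libraries.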

Additional observations from a re-analysis of the deposited data

Results flagged for a closer look

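Of the 20 genes with the largest folds, 10 in each direction, among DEGs without overlap and averaging 100 counts or more in their higher group, 4 had a difference between WT_Fe_Ov and MT_Fe_Ov that changed between D30 and D120 by the interaction test in edgeR. Over all genes tested, 286 of 24678 (1.16%) had such a change. The 20 genes were picked for their D30 fold, which enters this test and favours such a change. The 4 genes were all higher in MT_Fe_Ov at D30. None was a DEG at D120, where 25 of all 24122 genes tested (0.104%) were. The log2 fold change at D30 minus that at D120 was -5.58 ± 1.18 (SE) for LOC101168460 (edgeR adjusted p = 0.0364), -4.10 ± 0.68 for LOC110014086 (edgeR adjusted p = 0.00963), -3.33 ± 0.44 for LOC105353878 (edgeR adjusted p = 0.00319) and -1.91 ± 0.38 for LOC101168389 (edgeR adjusted p = 0.0273). At D120 LOC105353878 was at 30.3, 21.5 and 24.9 FPKM in WT_Fe_Ov and at 23.8, 10.7 and 10.7 in MT_Fe_Ov, and LOC101168389 was at 0.370, 0.472 and 0.290 against 0.474, 0.452 and 0.589.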

How the results depend on the processing

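At D30, 401 genes were called, 210 higher in WT_Fe_Ov and 191 higher in MT_Fe_Ov. The counts, in that order, were 719, 380 and 339 with DESeq2, and 95, 52 and 43 with an adjusted p threshold of 0.01. With a log2 fold change of at least 2 there were 189, of which 43 were higher in MT_Fe_Ov. They were 675, 386 and 289 in 1 fit of all 27 libraries, and 688 and 413 (total and higher in WT_Fe_Ov) in 1 fit of the 12 ovary libraries of D30 and D120. DESeq2 size factors, library totals, filterByExpr, no filter on low counts and the fit without genes that follow cpb1 gave 426, 417, 524, 365 and 383, within 1.5 times the 401. The causes of these changes were not tested.

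With edgeR and 1 library left out in turn, the total ranged from 0 to 1078, with 0 to 747 genes higher in WT_Fe_Ov and 0 to 331 higher in MT_Fe_Ov. With DESeq2 (chosen after the data were seen) it ranged from 411 to 1039, with 175 to 701 higher in WT_Fe_Ov and 236 to 436 higher in MT_Fe_Ov. Without MT_Fe_Ov replicates 1, 2 and 3 in turn, DESeq2 called 699 (347 and 352), 1039 (701 and 338) and 877 (441 and 436). The 92 DEGs of D10 became 414 with DESeq2, and the 25 of D120 became 119. The 286 genes with a stage difference became 536 with filterByExpr and 71 with an adjusted p threshold of 0.01, and ranged from 70 to 999 without 1 library.

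Replicates with the same number deviated together with r of 0.203, 0.222 and -0.0485, so the numbers were not taken as pairs. With the replicate number as a block the DEGs numbered 491 at D30 (276 and 215), 4 at D10 and 112 at D120, and 281 genes had a stage difference. Among the genes named by rule, star and ncf1 lost their call (edgeR adjusted p = 0.058 and 0.069). Not every library correlated best with its own number.

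Over the genes named by rule and all these settings, 790 values of called genes stayed on their side of the threshold, 181 lost the call and 0 changed direction. The groups do not overlap for the called genes, which largely fixes their direction when 1 library is left out. Direction changed 17 times among genes that were not called. The log2 fold change of bmp15 was 0.057 with library totals, and ranged from -0.088 to 0.048 without 1 library in edgeR (0.029 and 0.0017 without MT_Fe_Ov replicate 1 or 3 in DESeq2). That of gsdf ranged from -0.14 to 1.48 (-0.16 and -0.062 in DESeq2 without MT_Fe_Ov replicate 1 or 3), and that of LOC101174651 from -1.69 to 0.52 (0.54 in DESeq2 without replicate 2). That of figla ranged from -0.033 to 0.17 (-0.061 in DESeq2 without replicate 3), bmp4 from -0.39 to 0.19 (0.18 in DESeq2 without replicate 2) and sox9 from -0.016 to 0.27 (-0.022 in DESeq2 without WT_Fe_Ov replicate 3).

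The lower total counts limit genes at a low level most in MT_Fe_Ov, where star rested on 2 counts and ano3 on 3.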
